A study of Mus musculus with 11 samples.

Results

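The clustered histone genes are the genes whose symbols start with Hist1h, Hist2h, Hist3h or Hist4h, the older mouse names of the replication-dependent histones. Membership was set by symbol alone, and 67 of the 32285 genes in the count tables met the rule. The set itself was chosen with earlier results of these data known. The Hist1 cluster on chromosome 13 held 54 of them, Hist2 on chromosome 3 held 10, Hist3 on chromosome 11 held 2 and Hist4 on chromosome 6 held 1. By the protein encoded, 6 were linker histone H1 genes, 18 were H2A genes, 18 H2B, 12 H3 and 13 H4.

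Single-cell RNA sequencing was performed on right brain tissue of 11 mice, each giving a separate 10x Genomics library that counts the 3′ ends of captured molecules as unique molecular identifiers (UMIs). WT mice were C57BL/6 males, and Lrg1-/- mice carried a conventional deletion of Lrg1, a secreted leucine-rich glycoprotein, in every cell, on a C57BL/6N background and with an older stated age than the WT mice. MCAO/R is middle cerebral artery occlusion by a filament that was then withdrawn to allow reperfusion, and sham mice had the same surgery without the filament entering the internal carotid artery. The groups were sham + WT (n = 3, replicates 1, 2 and 3), sham + Lrg1-/- (n = 3, replicates 1, 2 and 5), MCAO/R + WT (n = 2, replicates 1 and 2) and MCAO/R + Lrg1-/- (n = 3, replicates 1, 2 and 5). The labels name no drug and no further allele in any group, and all tissue went through enzymatic digestion and red cell lysis.

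Histone proteins package DNA into nucleosomes, each built from H2A, H2B, H3 and H4, with H1 binding the linker between them. Replication-dependent histone genes are expressed mainly in S phase, when new DNA has to be packaged, and their mRNAs end in a conserved stem-loop bound by Slbp in place of a poly(A) tail. Some copies also make polyadenylated transcripts, often in cells that no longer divide. The 10x 3′ method primes on poly(A), so the values below are those of the histone transcripts that this priming captured, and cannot be read as the total of each histone mRNA.

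The stem-loop carries this difference between histone mRNAs and others, so its variants are shown as found in the annotated transcripts of the members (GENCODE vM21, GRCm38). Each is 16 bases, 5′ to 3′, written with the paired stem in capitals and the 4-base loop in lower case.
26 members including Hist1h1c, Hist1h1e and Hist1h2ac: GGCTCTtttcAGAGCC
7 H4 members including Hist1h4d and Hist4h4: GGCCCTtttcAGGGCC
6 members including Hist1h3e and Hist1h2bk: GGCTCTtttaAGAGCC
Hist1h4i and Hist2h4: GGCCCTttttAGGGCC
Hist1h4b and Hist1h4j: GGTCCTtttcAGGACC
The remaining 3 variants were found in 1 member each, and no stem-loop was found in the annotated transcripts of 21 members, among them Hist1h2bc. In 23 members the annotated transcript ran on for 100 bases or more after the stem-loop, and these members held 52.1% of all clustered histone UMIs. The 23 members whose transcript ended sooner after it held 6.08%, and the 21 in which none was found held 41.8%. The search covered only annotated transcripts after their coding sequence, so a transcript annotated too short would hide a stem-loop.

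The promoters of 61 of the 67 members were matched in RefSeq (GRCm38.p6), as windows of 300 bases from 250 before to 50 after the start. The letters CCAAT were found on either strand in 52 of the 61 (85.2%), against 37.9% of all 27025 windows, and TATAAA in 35 (57.4%), against 14.2%. The H1 box, searched as AAACACA on both strands, was in 9 of the 61 but in 5 of the 6 H1 genes, against 7.14% of all windows. The windows of 3 members that behave differently below are shown, with matches to these motifs on either strand in capitals. Hist1h1b (H1f5), which followed division most closely among the H1 genes, is at chr13:21780576-21780875 on the minus strand. Hist1h1c (H1f2), an H1 gene abundant outside division, is at chr13:23738557-23738856 on the plus strand. Hist1h2ac (H2ac6), which differed between genotypes in microglia, is at chr13:23683910-23684209 on the minus strand, and this window also holds the annotated start of Hist1h2bc, which is transcribed the other way from position 23684199.
Hist1h1b: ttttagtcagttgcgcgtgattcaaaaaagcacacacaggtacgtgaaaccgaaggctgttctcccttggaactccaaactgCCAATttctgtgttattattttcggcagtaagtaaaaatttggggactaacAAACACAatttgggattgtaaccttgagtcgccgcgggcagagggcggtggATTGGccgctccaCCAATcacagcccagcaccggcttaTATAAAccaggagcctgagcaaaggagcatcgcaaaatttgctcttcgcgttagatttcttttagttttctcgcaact
Hist1h1c: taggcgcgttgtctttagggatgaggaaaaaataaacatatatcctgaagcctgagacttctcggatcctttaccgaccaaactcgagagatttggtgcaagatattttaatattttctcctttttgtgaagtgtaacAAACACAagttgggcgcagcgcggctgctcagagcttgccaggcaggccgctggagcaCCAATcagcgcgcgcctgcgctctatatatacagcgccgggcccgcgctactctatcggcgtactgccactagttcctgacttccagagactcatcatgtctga
Hist1h2ac: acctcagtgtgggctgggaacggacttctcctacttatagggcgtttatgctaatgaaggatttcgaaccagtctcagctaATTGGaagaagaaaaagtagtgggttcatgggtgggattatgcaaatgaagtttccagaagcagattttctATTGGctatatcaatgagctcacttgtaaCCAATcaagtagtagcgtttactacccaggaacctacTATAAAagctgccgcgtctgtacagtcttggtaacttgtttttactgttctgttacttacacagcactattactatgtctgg

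Libraries held 5650 to 36858 barcodes and 34978129 to 168747478 UMIs in the cells kept, with medians of 3190 to 11504 UMIs per cell. The lowest UMIs per barcode were 500 in the 5 WT libraries and in MCAO/R + Lrg1-/- replicates 2 and 5. In sham + Lrg1-/- they were 590, 645 and 551, with 15500, 9000 and 5650 barcodes. MCAO/R + Lrg1-/- replicate 1 had 770, with 8500 barcodes. The barcode lists thus differed in part with genotype, and the part of this was not tested. After filters and doublet removal 124491 cells remained, of which 84322 fell in clusters that their markers named. This was 76.3% to 94.4% of the cells of a WT library and 29.5% to 82.1% of those of a Lrg1-/- library. Comparisons of genotype thus leave out unequal shares of cells, and the part of this was not tested. Among the unnamed cells, 1 cluster of 5740 scored highest for microglia, at 0.874, with the next type at 0.163. It stayed unnamed because 2 of its markers were raised and 3 were needed. MCAO/R + Lrg1-/- replicate 1 gave 41.8% of it. All microglia-like values below leave this cluster out, and its part was not tested. Named clusters are called X-like here because no annotation by the authors was used here. Libraries shared at most 1.15% of the cell barcodes of the smaller one. Lrg1 itself had no UMI in any Lrg1-/- library. The 7 red blood cell markers, haemoglobin genes among them, summed to 15.4 to 22.3 CPM (UMIs scaled to a total of 1000000 over all genes of the same cells) in microglia-like cells of the 5 WT libraries and to 9225 to 19198 in those of the 6 Lrg1-/- libraries, and to 390 to 1549 against 16619 to 24082 in endothelial-like and 13.3 to 21.4 against 7487 to 28676 in oligodendrocyte-like cells, so that genotype and the content of red cell RNA cannot be told apart. Its part in any genotype difference below was not tested, nor in those of surgery, where it also differed within a genotype, as in endothelial-like cells of WT mice (955 to 1312 CPM after sham, 1549 and 390 after MCAO/R) and oligodendrocyte-like cells of Lrg1-/- mice (8283, 7487 and 20389 after sham, 8043, 28676 and 22029 after MCAO/R).

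The 67 members together gave 493721 UMIs, 0.0477% of all UMIs, and were far from equal. Hist1h2ba and Hist1h2aa had no UMI, 27 members had 1000 or more, and the 12 leading members held 88.1% of the total. Hist1h2bc, an H2B gene, alone held 39.1%, and Hist1h1c held 20.6%. Of the others, Hist1h1e (H1) held 4.17%, Hist3h2a (H2A) 4.13%, Hist3h2ba (H2B) 3.53%, Hist1h2be (H2B) 3.47%, Hist1h4d (H4) 3.04%, Hist1h2ac (H2A) 2.67%, Hist1h2ae (H2A) 2.11%, Hist1h4i (H4) 1.93%, Hist1h2ap (H2A) 1.85% and Hist1h3d (H3) 1.49%. A UMI marks a captured 3′ end whatever the transcript's length, so these shares were not divided by length. Many members are near-identical copies, and reads shared between copies leave the level of a single copy uncertain. The annotated span of Hist1h2be also overlaps Hist1h1e on the same strand, and that of Hist3h2a overlaps Trim17.

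Among the cell types, choroid plexus epithelial-like cells, which make cerebrospinal fluid, had the highest mean level of clustered histone transcripts over all libraries, at 1139 ± 217 CPM (mean ± SD over 11 libraries). Neuroblast or neuron-like cells followed at 960 ± 396 (n = 11), B cell-like cells at 890 ± 456 (n = 6), ciliated ependymal-like cells at 827 ± 129 (n = 11) and border macrophage-like cells at 626 ± 273 (n = 9). Microglia-like cells stood in the middle at 445 ± 101 (n = 11), beside fibroblast-like cells at 447 ± 132 (n = 4) and neutrophil-like cells at 446 ± 98.7 (n = 4). Oligodendrocyte-like cells had 368 ± 129 and endothelial-like cells 305 ± 121 (both n = 11). The lowest levels were 217 ± 29.1 in oligodendrocyte precursor-like cells (n = 3), 209 ± 91.9 in red blood cell-like cells (n = 6) and 199 ± 14.6 in pericyte-like cells (n = 7). Neighbours in this order mostly differed by less than 1 SD, so that the order is read only between its ends. Oligodendrocyte precursor-like cells had 82.6 CPM after thinning to 1000 UMIs per cell and 463 with types given cell by cell from markers, so that their place is not read. The types rest on different sets of groups, and the order at the top changed with the group: the mean of neuroblast or neuron-like cells was above that of choroid plexus epithelial-like cells in sham + WT (1382 against 1261) and MCAO/R + WT (1307 against 781), and B cell-like cells had 1266 in sham + WT. The lowest place changed as well. Astrocyte-like cells (169) were below pericyte-like cells (186) in MCAO/R + WT, and red blood cell-like cells (163) below them (193) in MCAO/R + Lrg1-/-. After thinning, pericyte-like cells had 230 and red blood cell-like cells 203. Hist1h2bc led in choroid plexus epithelial-like cells with 631 CPM, ahead of Hist1h1c with 260 and Hist1h4i with 37.3, whereas Hist3h2ba, at 140, came after Hist1h2bc (273) and Hist1h1c (170) in neuroblast or neuron-like cells.

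**Figure D1:**
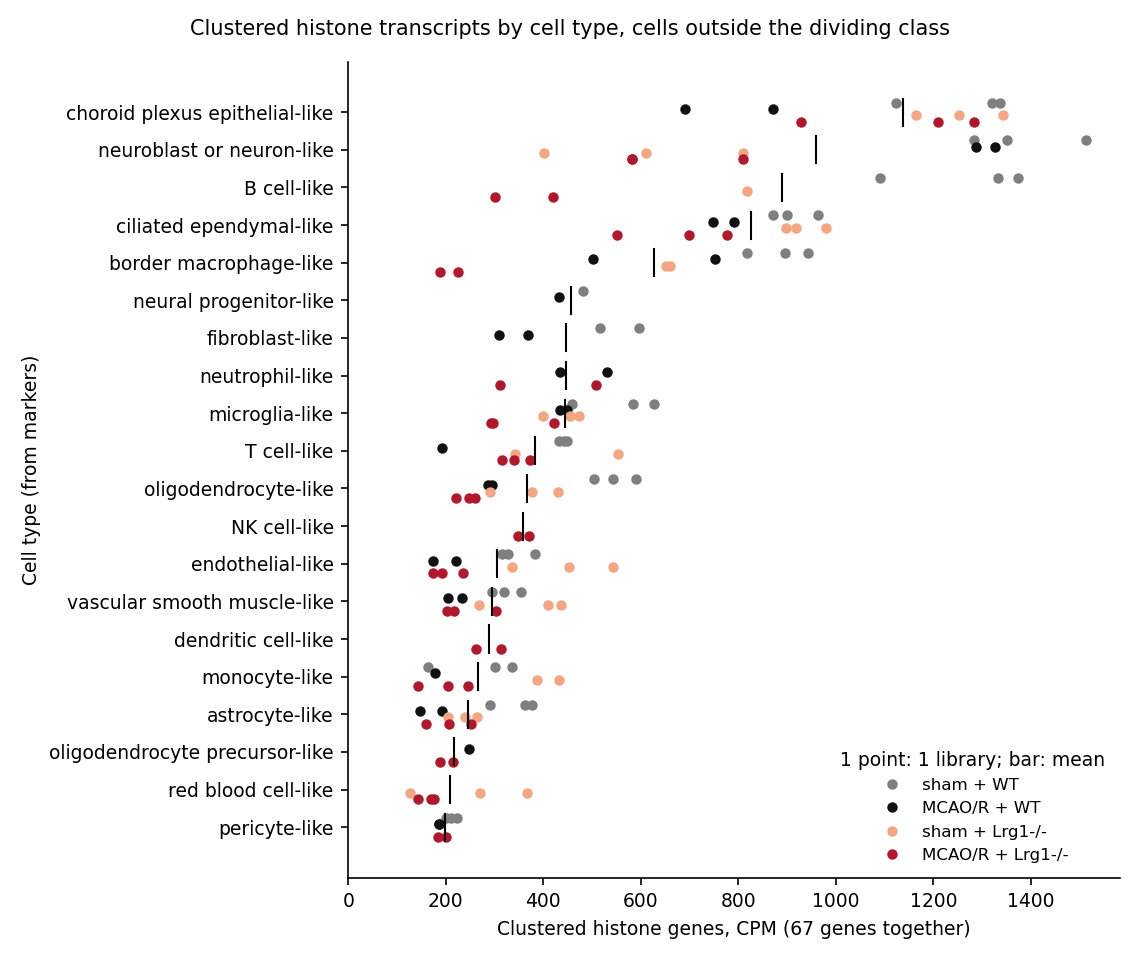
Clustered histone level in CPM (x axis) in each marker-defined cell type (y axis), dividing cells left out. Points are libraries coloured by group and bars are means over libraries. Choroid plexus epithelial-like cells had the highest mean over all libraries, 1139, and pericyte-like cells the lowest, 199, and both places changed with the group.

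The part of the cell cycle in these levels was examined first, by keeping cells with at least 1 UMI in 3 or more of Top2a, Mki67, Cenpf, Birc5, Ube2c and Cdk1 apart as dividing cells. These genes mark G2 and mitosis more than S phase. There were 747 dividing cells against 123744 others, and the members together had 1854 CPM in dividing cells and 456 in the others, a ratio of 4.07. H2A genes had 49.9 CPM in the other cells and 727 in dividing cells, H1 122 and 585, H4 40.0 and 143, H3 15.7 and 98.2, and H2B 228 and 301. The 2 leading members had about the same level in both classes, with ratios of 0.913 for Hist1h2bc and 1.12 for Hist1h1c. Hist1h1e (18.0 against 140), Hist1h4d (13.4 against 83.6), Hist1h2ae (6.07 against 260) and Hist1h2ap (4.32 against 292) were several-fold to many-fold more abundant in dividing cells.

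The members' transcripts differed in the same way over all cells. The ratio of dividing to other cells had a median of 25.1 over the 18 members with no stem-loop found that could be compared, 13.9 over 21 members with a short stretch after the stem-loop and 2.76 over 22 members whose annotated transcript runs on for 100 bases or more. The ranges overlapped widely, at 0.913 to 319, 1.93 to 475 and 0.720 to 42.9. Hist1h2bc, which had no stem-loop in its annotated transcript, had the lowest ratio of its class. The class with no stem-loop found can hold genes whose annotated transcript ends before it, such as Hist2h2bb with 381 bases. It is therefore not read as genes that lack a stem-loop. These ratios come from sums over all cells, in which cell types and libraries are mixed.

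**Figure D2:**
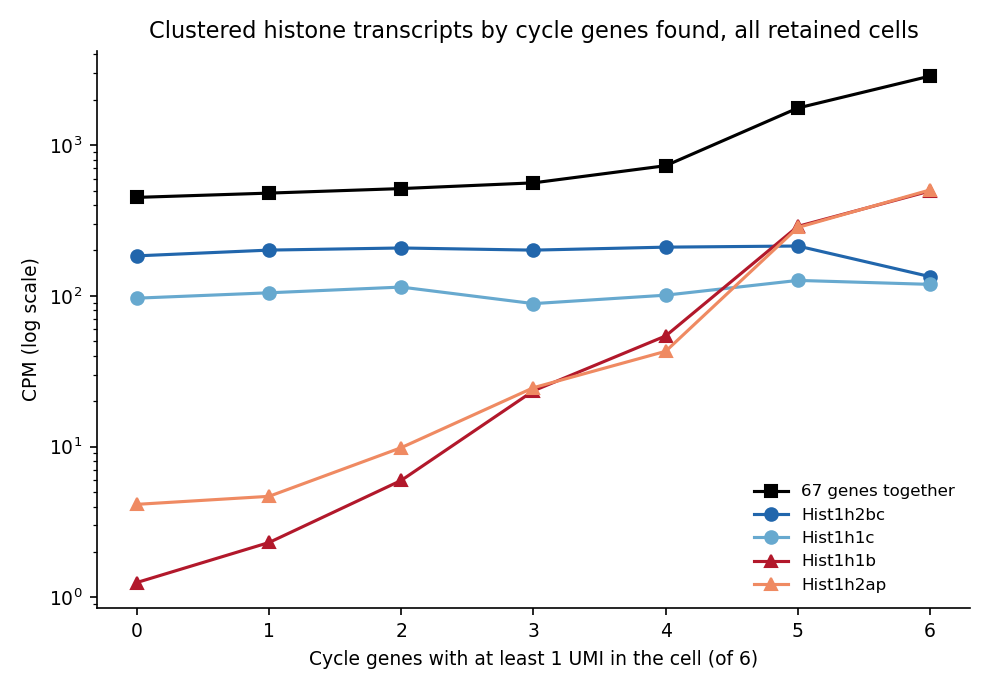
CPM (y axis, log scale) of all members together and of Hist1h2bc, Hist1h1c, Hist1h1b and Hist1h2ap in cells grouped by the number of the 6 cycle genes with a UMI (x axis), over all retained cells. All members go from 450 with no cycle gene to 2872 with 6, Hist1h2ap from 4.14 to 505 and Hist1h1b from 1.25 to 496, whereas Hist1h2bc goes from 184 to 134.

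Along the number of cycle genes with a UMI, the level of all members was 450 CPM in the 110618 cells with 0, 481 with 1, 515 with 2, 562 with 3, 731 with 4, 1763 with 5 and 2872 in the 272 cells with 6. Hist1h1b, an H1 gene of dividing cells, went over the same classes from 1.25 through 5.97 at 2 to 496 at 6. Hist1h2bc had 184, 208 and 134 CPM at 0, 2 and 6 cycle genes, and Hist1h1c 96.5, 114 and 119. Hist1h1b and Hist1h2ap were thus already higher at 2 cycle genes than at 0, and how many cells below the limit of 3 were in cycle was not tested.

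Within 1 cell type the comparison could be tested over mice in neuroblast or neuron-like cells, in the 4 libraries with at least 20 cells of each class (sham + WT replicates 1 and 3, MCAO/R + WT replicate 2 and MCAO/R + Lrg1-/- replicate 5). With the library as a block, edgeR's quasi-likelihood test called 20 of 28 members higher and 4 lower in dividing cells, where 9.36% of all genes tested were called higher and 7.94% lower. A call here and below needs a Benjamini-Hochberg adjusted p under 0.05 over all genes tested in the cell type and a fold above 1.284. The members' median log2 change was 2.59, against -0.05 over all genes. Without MCAO/R + WT replicate 2 the counts were 13 higher and 1 lower, and without the library block edgeR called 0 lower, with 4 at an unadjusted p under 0.05. With cells thinned to 1000 UMIs 8 members could be tested, of which 3 (Hist1h1b, Hist1h2ae and Hist1h2ap) were called higher and 0 lower, with 1 lower at an unadjusted p under 0.05.

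The members that rose covered all 5 families. Hist1h1b had 25.3, 26.0, 20.1 and 6.11 CPM in the other cells of the 4 libraries, in the order above, and 585, 443, 410 and 200 in the dividing cells (log2 change 4.40 ± 0.15 SE, edgeR adjusted p = 4.78e-09). Hist1h2ae went from 36.3, 45.7, 60.0 and 39.9 to 444, 515, 576 and 252 (3.26 ± 0.16, adjusted p = 7.24e-08). In both genes every dividing sample was above every other sample. Hist1h2ap rose by 3.20 ± 0.22 on the log2 scale, Hist1h4d by 2.68 ± 0.16, Hist1h3c by 5.54 ± 0.47 and Hist1h2af by 5.64 ± 0.45, and Hist1h1e rose less, by 1.24 ± 0.14.

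The 4 members that fell included Hist1h2bc and Hist1h1c, the leading members of non-dividing cells. Hist1h2bc had 372, 362, 345 and 119 CPM in the other cells and 156, 214, 217 and 79.4 in the dividing cells (-0.86 ± 0.13). Hist1h1c went from 254, 271, 185 and 114 to 88.9, 188, 116 and 107 (-0.77 ± 0.18). Each was lower in dividing cells in 4 of 4 libraries, although the ranges of the classes overlapped in both genes. For Hist1h2bc the overlap came from MCAO/R + Lrg1-/- replicate 5, which was low in both classes. For Hist1h1c the ranges overlapped without that library as well, at 185 in other and 188 in dividing cells. Hist3h2ba (-0.82 ± 0.17) and Hist3h2a (-0.69 ± 0.15), an H2B and H2A pair of the small Hist3 cluster, fell as well. After thinning these 4 members were at -0.38 to -0.72 and none was called. Hist1h2ac (0.27), Hist1h3d (0.58), Hist2h2be (1.32) and Hist1h2bf (1.44) were not called. The classes differed in size, with 47, 22, 74 and 30 dividing cells against 498, 144, 279 and 466 others.

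**Figure D3:**
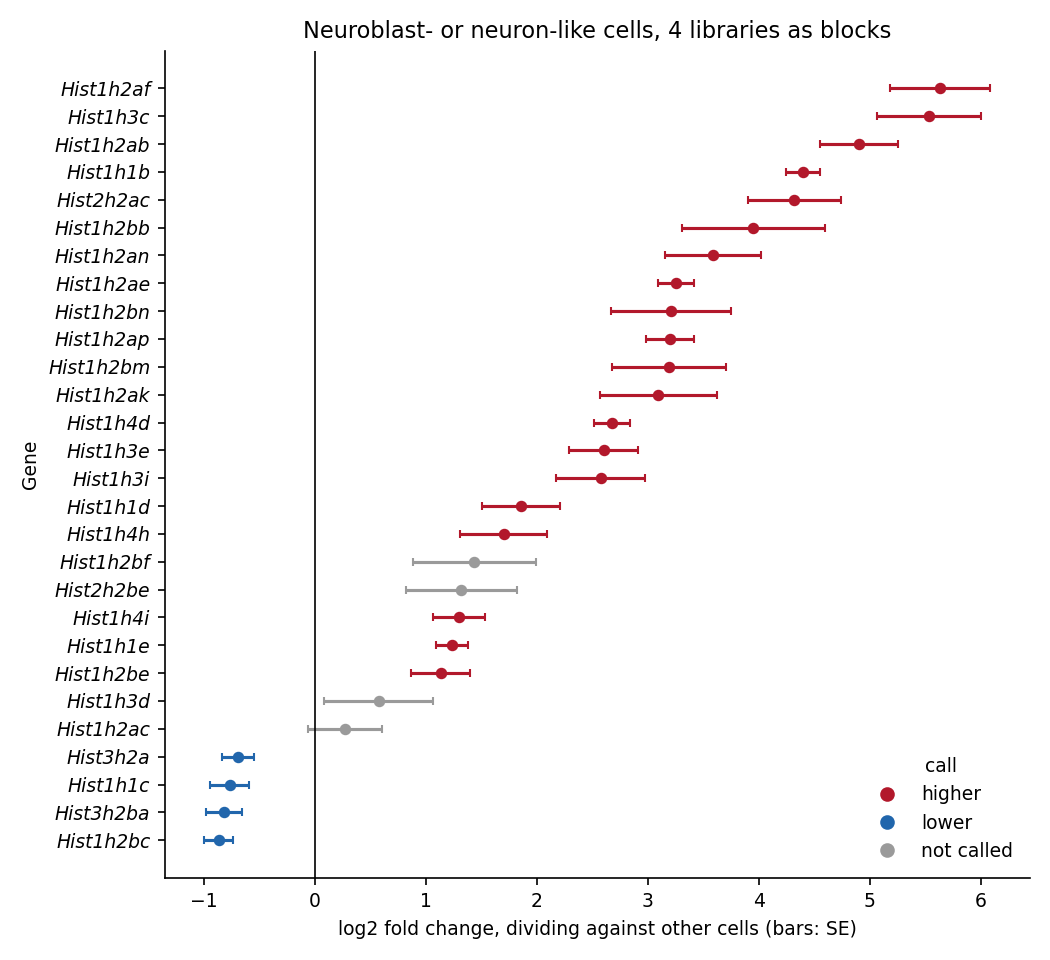
Log2 change between dividing and other neuroblast or neuron-like cells (x axis, with SE bars) for the 28 members tested (y axis), 4 libraries, library as a block. The 20 members called higher lie to the right of 0, and the 4 called lower, Hist1h2bc, Hist3h2ba, Hist1h1c and Hist3h2a, lie to the left.

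With the limit lowered to 10 cells of each class, a choice made after seeing the data, 2 more types could be tested. In neural progenitor-like cells (4 libraries, replicates 1 and 2 of sham + WT and of MCAO/R + WT) 10 of 15 members rose, against 5.66% of all genes, and edgeR called 0 lower, against 2.73%, also at an unadjusted p under 0.05, with a median log2 change of 3.66. All 4 libraries are WT, and 31 of 52, 20 of 31, 11 of 22 and 62 of 91 of these cells were dividing, so the other class was small. In microglia-like cells (3 libraries, all MCAO/R + Lrg1-/-) 11 of 17 rose, against 5.58%, and 0 were called lower, against 2.19%, again also at an unadjusted p under 0.05, with a median of 1.53. The share of microglia-like cells that were dividing was 5.36%, 1.31% and 0.516% in MCAO/R + Lrg1-/- and 0.0495% and 0.0694% in MCAO/R + WT, and the groups did not overlap. These were 14 of 261, 41 of 3118 and 23 of 4456 cells against 2 of 4037 and 3 of 4320. The difference of 2.34 percentage points gave a two-sided exact permutation p = 0.2, and 2 mice against 3 cannot go below 0.1. After each cell was thinned to 1000 UMIs, 1 cell was dividing in each of the 3 Lrg1-/- libraries, against 1 and 0 in WT. The means of 0.146% and 0.0124% (p = 0.4, exact permutation test) rest on these few cells, and no difference is read from them. In neuroblast or neuron-like cells the share went the other way, at 8.16%, 6.63% and 6.05% in MCAO/R + Lrg1-/- and 13.7% and 21% in MCAO/R + WT, without overlap (exact permutation p = 0.2), and at means of 1.34% and 7.09% after thinning (exact permutation p = 0.2). Over all cells the means were 0.674% and 0.867% (exact permutation p = 0.8). All comparisons of groups below leave dividing cells out. Genes whose groups are said below not to overlap were mostly named because they were called on the same values. Lack of overlap is therefore a description and no further test, and its share over all genes was not counted.

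The effect of MCAO/R was compared with sham surgery within each genotype, by 2 comparisons that share no library. In WT mice, 34 of 207 member and cell type pairs, over 11 cell types, were lower after MCAO/R and 1 was higher, against 5.44% and 5.89% of all gene and type pairs. In Lrg1-/- mice, 54 of 207 pairs, over 12 cell types, were lower and 1 was higher, against 5.76% and 6.64%. The median log2 change of the pairs was -0.46 in WT and -0.79 in Lrg1-/-, and all 11 cell types of the WT comparison had a median below 0. The single rises were Hist1h2ap in endothelial-like cells of WT mice (1.04) and Hist1h1a in microglia-like cells of Lrg1-/- mice (1.55). In WT the count of 1 higher stood in 2 of 10 alternatives and in 2 of 11 fits without 1 library, and in Lrg1-/- in 4 of 10 and 8 of 11. By family, 8 of 33 H1, 3 of 45 H2A, 10 of 51 H2B, 6 of 27 H3 and 7 of 51 H4 pairs were lower in WT. In Lrg1-/- these were 10 of 35, 12 of 43, 13 of 51, 7 of 27 and 12 of 51. The H2A share in WT, with a median of -0.16, was near the 5.44% of all pairs.

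Of the 196 pairs tested in both genotypes, 126 (64.3%) were below 0 in both, against 31.8% of all gene and type pairs. The calls shared by both comparisons numbered 18, which is 52.9% of the 34 lower in WT and 34.6% of the 52 lower in Lrg1-/-, against 43.7% and 43.3% over all genes, so that the overlap of the calls was close to that of other genes. They lay in endothelial-like (8), oligodendrocyte-like (5), microglia-like (3), vascular smooth muscle-like (1) and border macrophage-like cells (1). The counts rest partly on single mice, since 34 fell to 18 without MCAO/R + WT replicate 1 and to 21 without replicate 2, and 54 fell to 27 without sham + Lrg1-/- replicate 1, 31 without sham + Lrg1-/- replicate 2 and 34 without MCAO/R + Lrg1-/- replicate 2. With UMIs thinned to 1000 per cell the counts were 11 and 10.

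In endothelial-like cells, which line the vessels and form the blood-brain barrier, 9 of 34 members fell in WT mice (9.41% of all genes) and 15 of 34 in Lrg1-/- mice (9.05%). Hist3h2a had 30.6, 28.9 and 26.0 CPM in sham + WT and 13.9 and 13.3 in MCAO/R + WT (-1.02 ± 0.20, edgeR adjusted p = 0.00338). In sham + Lrg1-/- it had 34.3, 44.4 and 24.6, and in MCAO/R + Lrg1-/- 22.6, 15.8 and 16.9 (-0.96 ± 0.18, adjusted p = 0.00382). In neither genotype did the groups overlap.

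Hist1h2bc in the same cells had 106, 109 and 124 CPM in sham + WT against 57.8 and 47.1 after MCAO/R (-1.06 ± 0.25). The Lrg1-/- values were 177, 220 and 115 after sham and 96.3, 62.4 and 54.2 after MCAO/R (-1.31 ± 0.23). Hist1h1c went from 99.2, 110 and 147 to 83.0 and 44.7 in WT (-0.84 ± 0.25) and from 99.0, 126 and 87.8 to 50.1, 39.9 and 40.7 in Lrg1-/- (-1.30 ± 0.23). Both therefore stood below every sham library of their genotype. Hist1h2be (-1.25 in WT and -1.54 in Lrg1-/-), Hist3h2ba (-1.29 and -1.02) and Hist1h4h (-1.20 and -1.87) also fell in both. The WT count in these cells was 4 without MCAO/R + WT replicate 1 and 3 without replicate 2, whereas the Lrg1-/- count of 15 stayed within 1.5 times when any 1 library was left out and was 6 after thinning. In Lrg1-/- mice 1 endothelial cluster held 24.5% to 33.4% of these cells after sham and 48.5% to 66.1% after MCAO/R, and the summed neutrophil markers were 27.1 to 54.9 CPM and 46.4 to 499. In WT mice that cluster held 4.38% to 11.3% after sham and 23.8% and 5.73% after MCAO/R, and a further cluster went from 24.4% to 28.6% of the cells to 10.8% and 12.7%. The part of these shifts was not tested.

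Oligodendrocyte-like cells, the myelin-forming glia, had the most calls of any type in WT mice, with 12 of 25 members lower against 13.1% of all genes. Hist1h1c had 114, 114 and 91.9 CPM in sham + WT and 40.8 and 32.2 in MCAO/R + WT (-1.65 ± 0.23, edgeR adjusted p = 9.96e-05). Its Lrg1-/- values were 49.0, 38.1 and 36.1 after sham and 20.2, 47.1 and 32.7 after MCAO/R, where the groups overlapped and no call was made. Hist3h2a fell in both genotypes, from 36.8, 32.4 and 32.2 to 14.8 and 19.3 in WT (-1.07 ± 0.15) and from 30.8, 26.8 and 24.4 to 9.72, 12.5 and 11.9 in Lrg1-/- (-1.30 ± 0.17). Hist1h1e fell from 21.9, 16 and 21.9 to 8.81 and 8.35 in WT (-1.31 ± 0.23) and from 13, 15.5 and 10.7 to 6.73, 2.99 and 4.79 in Lrg1-/- (-1.58 ± 0.28). None of these sham and MCAO/R groups overlapped. Hist1h2bc had 237, 210 and 199 against 121 and 103 in WT (-1.04 ± 0.17), and 210, 197 and 139 against 150, 134 and 101 in Lrg1-/- (-0.58 ± 0.16), where the groups overlapped. In Lrg1-/- mice 6 of 25 members fell in all, against 8.58% of all genes. The summed neuroblast or neuron markers in these cells were 95.8 to 121 CPM in sham + WT against 543 and 443 in MCAO/R + WT, and 91.7 to 112 against 300 to 360 in Lrg1-/-, where the median mitochondrial share also went from 6.15% to 7.33% after sham to 8.14% to 9.61% after MCAO/R. In Lrg1-/- mice 1 cluster of these cells went from 27.4% to 40.8% after sham to 6.75% to 14.6% after MCAO/R and another from 47.6% to 56.6% to 72.5% to 86.1%. The part of these values in the changes was not tested. The WT count of 12 was 7 without MCAO/R + WT replicate 2 and 3 after thinning.

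In microglia-like cells, the resident macrophages of the brain, 14 of 49 members fell in Lrg1-/- mice, against 15.5% of all genes. In WT mice 6 of 49 fell, a share near the 9.77% of all genes. Hist3h2a had 13, 16.9 and 12 CPM in sham + WT and 6.48 and 8.84 in MCAO/R + WT (-0.86 ± 0.21), and 15.1, 14.1 and 18.1 against 7.28, 8.31 and 8.11 in Lrg1-/- (-0.85 ± 0.20). The WT count was 0 without MCAO/R + WT replicate 1 and 3 without sham + WT replicate 2 or 3, and the Lrg1-/- count was 7 without sham + Lrg1-/- replicate 1 and 8 without MCAO/R + Lrg1-/- replicate 5. These cells formed 2 named clusters, without the unnamed one given above. The second held 2.97% to 10.1% of them in sham + WT, 53.6% and 11.4% in MCAO/R + WT, 73.6% to 86.0% in sham + Lrg1-/- and 87.4% to 96.3% in MCAO/R + Lrg1-/-. Their summed microglia markers were 8979 to 9858 CPM after sham and 3908 and 3415 after MCAO/R in WT, and 7406 to 8846 against 5250 to 6282 in Lrg1-/-, and their part in these results was not tested. The median mitochondrial share was 1.54% to 1.68% in sham + WT, 1.70% and 2.33% in MCAO/R + WT, 2.39% to 2.49% in sham + Lrg1-/- and 1.77% to 2.03% in MCAO/R + Lrg1-/-, so that it moved with genotype after sham and with surgery, and its part was not tested either. With the clusters fitted apart, a choice made after seeing the data, 4 of 16 members were lower and 1 higher in the first in WT, against 15.4% and 14.6% of all genes, and 5 of 22 were lower in the second, against 6.89%. In Lrg1-/- 3 of 16 were lower in the first, against 5.03%, and 7 of 22 in the second, against 23.4%. Hist3h2a was called lower in both clusters in WT (-0.59 and -1.37) and in the second in Lrg1-/- (-0.85), and was at -0.90, not called, in the first.

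In WT mice the other types added fewer calls each. Hist1h4i, an H4 gene, fell in ciliated ependymal-like cells of WT mice from 74.5, 83.2 and 78.6 CPM to 25.6 and 21 (-1.77 ± 0.20, edgeR adjusted p = 0.000295) and in choroid plexus epithelial-like cells from 49.5, 47.4 and 44.5 to 13.7 and 25.1 (-1.50). Hist1h1e fell in vascular smooth muscle-like cells of both genotypes, with log2 changes of -1.74 in WT and -2.03 in Lrg1-/-. There 1 of 10 members fell in WT and 5 of 10 in Lrg1-/-, against 6.77% and 5.98% of all genes. In astrocyte-like cells of WT mice all 3 members tested fell, against 6.6% of all genes, with log2 changes of -1.13 for Hist1h1c, -0.74 for Hist1h2bc and -1.33 for Hist1h2be. There the median mitochondrial share was 3.75% to 4.20% after sham and 3.24% to 3.44% after MCAO/R. The microglia markers were 290 to 366 CPM and 196 to 218, and the neutrophil markers 4.48 to 13.9 and 17.7 to 18.5. The part of these values was not tested. In border macrophage-like cells 11 of 21 members fell in Lrg1-/- mice, with 2 libraries a group and against 4.42% of all genes, and leaving out any 1 library reduced this to between 1 and 7. The summed neutrophil markers of these cells were 89.6 and 66.4 CPM in sham + Lrg1-/- and 995 and 336 in MCAO/R + Lrg1-/-, and the monocyte markers 60.7 and 40.4 against 212 and 1206, and their part was not tested. By gene, Hist1h2be and Hist1h4i were lower in the most types in WT (4 each of 11 and 8 tested), and Hist1h1e (6 of 10) and Hist1h2bc (6 of 12) in Lrg1-/-.

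**Figure D4:**
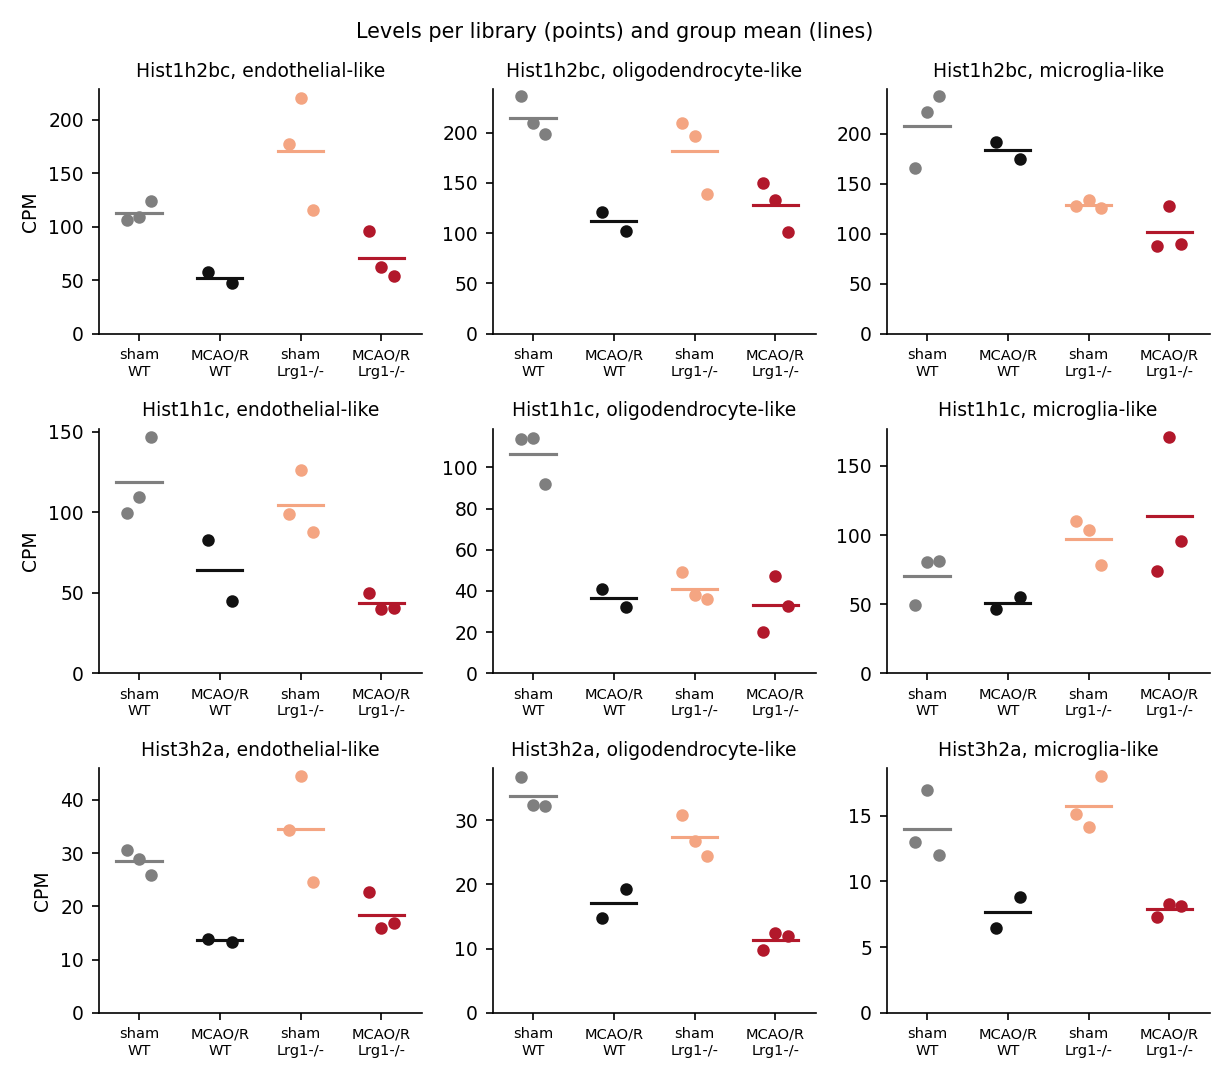
CPM (y axis) of Hist1h2bc, Hist1h1c and Hist3h2a (rows) in endothelial-like, oligodendrocyte-like and microglia-like cells (columns), 1 point per library, by surgery and genotype (x axis), lines at the group means. Hist3h2a is lower after MCAO/R in both genotypes in all 3 types, and Hist1h1c in oligodendrocyte-like cells is high only in sham + WT, at 91.9 to 114.

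The genotypes were then compared after the same surgery. After MCAO/R, 36 of 208 pairs over 11 cell types were lower in Lrg1-/- than in WT and 12 were higher, against 7.45% and 7.98% of all gene and type pairs, with a median of -0.22. After sham surgery, 19 of 205 pairs were lower and 16 higher, against 5.04% and 4.72%, with a median of 0.03. The higher counts rested on single mice, since 12 became 6 without MCAO/R + WT replicate 1, 4 without MCAO/R + WT replicate 2 and 6 without MCAO/R + Lrg1-/- replicate 2, and 16 became 6 to 10 when any 1 sham library was left out. The count of 36 was 20 without MCAO/R + WT replicate 2.

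Microglia-like cells gave the most calls. After MCAO/R, 14 of 49 members were lower in Lrg1-/- and 4 were higher, against 10.3% and 10.4% of all genes. Hist1h2ac, an H2A gene, had 32.9 and 30.0 CPM in MCAO/R + WT and 3.88, 5.14 and 4.56 in MCAO/R + Lrg1-/- (-2.80 ± 0.21, edgeR adjusted p = 5.14e-06). Hist1h3d, an H3 gene, had 22.1 and 22.2 against 1.94, 3.79 and 2.68 (-2.92 ± 0.26, adjusted p = 1.59e-05). Hist1h2be had 21.4 and 27.5 against 8.49, 6.91 and 6.39 (-1.86 ± 0.21). In each the lowest WT library was above the highest Lrg1-/- library.

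The other core histone members that fell had smaller levels or changes. Hist4h4 had 9.68 and 11.0 CPM in WT and 1.94, 2.89 and 2.65 in Lrg1-/- (-2.03 ± 0.23), and Hist1h4d had 19.6 and 23.8 against 11.6, 9.83 and 12.5 (-1.01 ± 0.16). Hist1h2bc, the most abundant, had 192 and 175 against 87.6, 128 and 89.4 (-0.92 ± 0.20). These groups did not overlap either. Hist1h2ae (-1.41 ± 0.24), Hist1h2bg (-2.23 ± 0.36), Hist1h2ad (-2.99 ± 0.38) and Hist1h2bf (-4.52 ± 0.58) were also lower, the last from levels of 2.03 and 2.88 to at most 0.168. Hist1h4m, at 0.372 and 0.335 in WT, had no UMI in the 3 Lrg1-/- libraries. The count of 14 stayed between 11 and 15 in every alternative that fitted these cells together.

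The 4 members that were higher were all H1 genes, and they made up 4 of the 5 H1 genes tested, whereas edgeR called 0 higher among the 12 H2A, 13 H2B, 9 H3 and 10 H4 genes tested. None of those core histone genes was higher at an unadjusted p under 0.05 either, and DESeq2 called 0 of them higher. Hist1h1c had 46.4 and 55.1 CPM in MCAO/R + WT and 74.3, 171 and 95.7 in MCAO/R + Lrg1-/- (1.12 ± 0.33), and Hist1h1d had 2.23 and 2.88 against 6.07, 9.66 and 5.01 (1.41 ± 0.35). Hist1h1e had 16.8 and 19.6 against 37.1, 28.9 and 25.1 (0.64 ± 0.20). Hist1h1a was higher by 1.34 ± 0.35. The groups did not overlap in these genes, but the calls were fragile: 1 remained without either MCAO/R + WT library, 0 without MCAO/R + Lrg1-/- replicate 2 and 0 when only these groups were fitted, and the change of Hist1h1e was -0.10 when types were given cell by cell from markers.

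After sham surgery the same comparison in microglia-like cells gave 8 members lower and 2 higher of 49, against 11.3% and 11.2% of all genes, so that members were not called higher more often than other genes. Hist1h2ac had 45.1, 43.5 and 46.8 CPM in sham + WT and 14.6, 7.50 and 12.6 in sham + Lrg1-/- (-2.12 ± 0.21, edgeR adjusted p = 1.93e-05). Hist1h3d had 20.7, 26.0 and 27.9 against 10.3, 9.93 and 5.46 (-1.63 ± 0.25). Hist1h2bc had 165, 222 and 237 against 128, 134 and 126 (-0.85 ± 0.18). No Lrg1-/- library reached a WT library in these 3 genes. Hist1h2be (-0.92), Hist4h4 (-1.10), Hist1h2bg (-1.69), Hist1h2ae (-0.98) and Hist1h3a (-1.23) were also lower, and Hist2h3c2 (1.86) and Hist1h1b (1.44) were higher. The change of Hist1h2bc was 0.017 with types given cell by cell.

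The mix of the 2 microglia clusters given above moved with genotype, as the second held at most 53.6% of the cells in any WT library and at least 73.6% in any Lrg1-/- library. With the clusters fitted apart, chosen after seeing the data, Hist1h2ac was lower in Lrg1-/- after MCAO/R by 2.17 on the log2 scale in the first and by 1.72 in the second, and Hist1h3d by 2.41 and 2.16. In the first cluster 8 of 16 members tested were lower, against 11.3% of all genes. In the second 4 of 22 were lower, against 6.4%, and 3, Hist1h1c (1.21), Hist1h1d (2.19) and Hist1h1e (1.19), were higher, against 3.56%. The second held 87.4% to 96.3% of the MCAO/R + Lrg1-/- cells. In it Hist1h4d (-0.19), Hist1h2ae (-0.23), Hist1h2bc (-0.51), Hist1h2be (-0.90) and Hist1h2bg (-1.52), called lower in the clusters together, were not called. After sham surgery 4 of 16 were lower in the first cluster, against 5.48%, and 2 of 22 in the second, against 7.3%. Hist1h2ac was lower in both, by 1.46 and 1.53. Hist1h3d was -1.48 in the first cluster and -0.54, not called, in the second, which held most sham + Lrg1-/- cells, and there Hist1h2be (-0.31), Hist1h2bg (-0.14) and Hist4h4 (-0.66) were not called either. The median UMIs per microglia-like cell were 8376 to 10346 in sham + WT and 4288 to 6879.5 in sham + Lrg1-/-. After MCAO/R they were 9265 to 12232 in WT and 7407 to 14719 in Lrg1-/-. The part of the cluster mix, of this depth and of the microglia markers given above in these results was not tested.

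Most members lower in microglia-like cells lay close together. Of the 10 members in the stretch from Hist1h2ae to Hist1h2bc, chr13:23570517-23692908 (122 kb), chosen after the values were seen, 9 were lower and 1, Hist1h1e, was higher after MCAO/R, with a median of -2.05. Of the 39 members tested elsewhere 5 were lower and 3 higher, with a median of -0.05. In the sham comparison, which shares no library with it, 6 of the 10 were lower with a median of -0.95, against 2 lower and 2 higher of the 39 with a median of 0.17. The comparisons of surgery did not have the same split in WT, with 2 of 10 and 4 of 39 lower, and in Lrg1-/- 8 of 10 and 6 of 39 were lower. In endothelial-like cells 1 of 8 members inside the stretch and 1 of 26 outside were lower in Lrg1-/- after MCAO/R. In oligodendrocyte-like cells these were 1 of 8 and 2 of 17, in choroid plexus epithelial-like cells 1 of 7 and 1 of 15, and in neuroblast or neuron-like cells 2 of 7 and 2 of 9. Because the stretch holds overlapping and near-identical genes, its members are not independent counts. As it was chosen after the values were seen, these splits are not tests of it. They also pool the 2 microglia clusters, whose mix moved with genotype, and the stretch was not compared within each cluster. In the second cluster fitted alone after sham, 2 of 22 members were lower, against 7.3% of all genes.

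**Figure D5:**
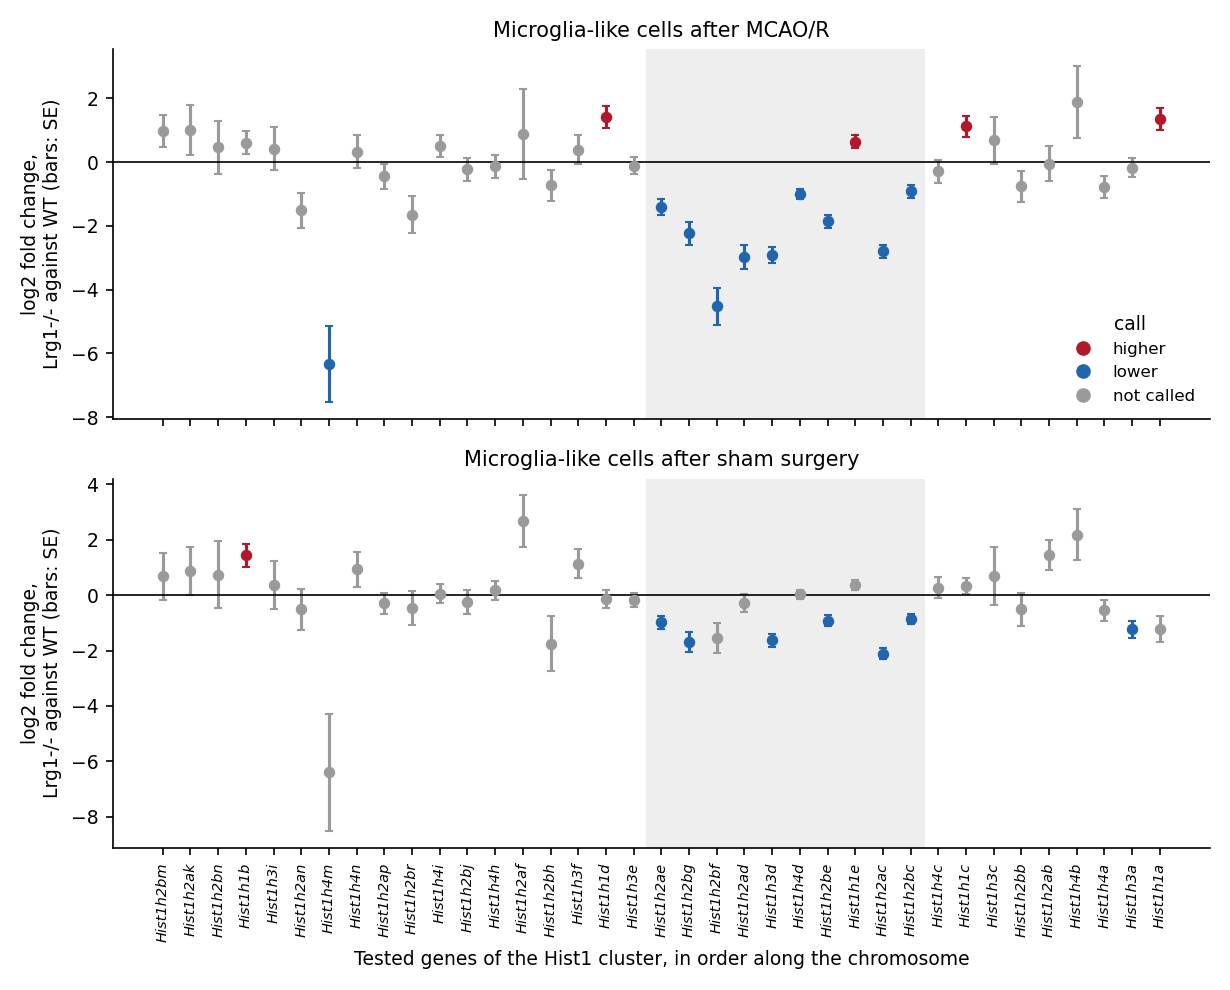
Log2 change in microglia-like cells between Lrg1-/- and WT (y axis) of the Hist1 genes tested, in their order along chromosome 13 (x axis), after MCAO/R and after sham surgery, with SE bars, colours for the calls and the stretch from Hist1h2ae to Hist1h2bc shaded. Inside it, with the 2 microglia clusters pooled, the medians are -2.05 after MCAO/R and -0.95 after sham. The position of Hist1h4m is no size of change, since its Lrg1-/- libraries had no UMI.

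Border macrophage-like cells, the macrophages of the meninges and vessels, had 10 of 21 members lower in Lrg1-/- after MCAO/R, against 6.16% of all genes. None was called higher by edgeR, against 5.0% of all genes, or by DESeq2 (0), or reached an unadjusted p under 0.05 in that direction. Here MCAO/R + Lrg1-/- rests on replicates 2 and 5, with 151 and 74 cells. In these cells the summed neutrophil markers were 68.4 and 92.9 CPM in WT and 995 and 336 in Lrg1-/-, the microglia markers 721 and 540 against 1154 and 2514 and the monocyte markers 40.9 and 207 against 212 and 1206, and their part in the result was not tested. Hist1h2ac had 34.6 and 73.8 CPM in WT and 2.34 and 2.87 in Lrg1-/- (-4.38 ± 0.62, edgeR adjusted p = 0.00201). Hist1h2bc had 142 and 164 against 65.6 and 46.9 (-1.46 ± 0.22). Neither gene's groups overlapped. Hist1h3d (-2.80), Hist4h4 (-3.53), Hist1h2be (-3.33), Hist1h4d (-2.43), Hist2h4 (-4.66), Hist1h2ae (-2.61), Hist1h1e (-1.56) and Hist1h1c (-1.06) were also lower, so that H1 genes fell here with the core histones. Inside the stretch named above 7 of 8 members were lower, and outside it 3 of 13. The stretch was chosen after the values were seen, so this split is no test of it either. In these cells 1 of 8 inside and 0 of 13 outside were lower in Lrg1-/- after sham. After MCAO/R against sham in Lrg1-/- these were 4 of 8 and 7 of 13. The count of 10 was 5 without MCAO/R + WT replicate 2, 2 with these groups fitted alone and 0 after thinning, and after sham surgery 1 of 21 members, Hist1h3d (-1.79), was lower, against 0.497% of all genes.

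Endothelial-like cells had the opposite direction after sham surgery, with 10 of 34 members higher in Lrg1-/-, against 6.82% of all genes. Hist1h4d had 8.63, 9.51 and 9.94 CPM in sham + WT and 31.3, 30.8 and 24.4 in sham + Lrg1-/- (1.63 ± 0.16, edgeR adjusted p = 0.000147). Hist1h1e had 9.22, 9.33 and 11.6 against 19.3, 21.5 and 14.3 (0.88 ± 0.26), also without overlap. The other 8 included Hist1h4c (1.76), Hist1h3e (1.51), Hist1h2ap (1.70), Hist2h2ac (1.43) and Hist1h2ae (1.05), each with a mean of at most 1.67 CPM in sham + WT. These cells also lay in different clusters by genotype after sham, since 1 cluster held 56.1% to 60.6% of them in WT and 35.3% to 40.0% in Lrg1-/- and another 4.38% to 11.3% and 24.5% to 33.4%. The summed neutrophil markers were 8.46 to 18.8 CPM against 27.1 to 54.9 and the microglia markers 348 to 455 against 533 to 650, and the part of these was not tested. In vascular smooth muscle-like cells 3 of 10 members, Hist1h2bc (0.75), Hist1h4d (0.93) and Hist3h2a (0.65), were higher as well, against 4.36% of all genes, and these calls were lost in 6 of 20, 10 of 19 and 11 of 19 alternatives. There the neutrophil markers were 5.66 to 8.34 CPM in WT and 22.7 to 47.1 in Lrg1-/- and the microglia markers 254 to 335 and 518 to 641, and their part was not tested. The endothelial count was 5 or 6 without any 1 sham library other than sham + Lrg1-/- replicate 5, and 2 after thinning. After MCAO/R 2 of 34 members of endothelial-like cells, Hist1h1e (-1.14) and Hist1h3a (-1.38), were lower in Lrg1-/-, against 12.3% of all genes. No member was called higher by edgeR, against 11.8% of all genes, where 3 reached an unadjusted p under 0.05, and DESeq2 called 0 higher.

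In neuroblast or neuron-like cells 4 of 16 members were lower in Lrg1-/- after each surgery, against 1.76% of all genes after sham and 2.51% after MCAO/R. Hist1h1c had 254, 301 and 271 CPM in sham + WT and 107, 60.7 and 93.3 in sham + Lrg1-/- (-1.58 ± 0.21, edgeR adjusted p = 0.00265), and the groups did not overlap. Hist3h2ba (-2.08), Hist3h2a (-1.40) and Hist1h2bc (-1.24) were the other members lower after sham. After MCAO/R, Hist1h2bc had 458 and 345 in WT and 190, 201 and 119 in Lrg1-/- (-1.19 ± 0.26), and Hist1h1e (-1.23), Hist3h2ba (-1.07) and Hist1h1b (-1.80) were lower too. These MCAO/R calls numbered 0 without either MCAO/R + WT library or without MCAO/R + Lrg1-/- replicate 5, 1 without MCAO/R + Lrg1-/- replicate 1, and 1 or 2 when any 1 sham + WT library was left out, and the 4 sham calls numbered 2 without sham + WT replicate 2. The Lrg1-/- libraries had 21 to 466 of these cells, and the type joins neuroblasts and neurons, whose mix was not resolved. Their summed neuroblast or neuron markers were 5292 and 6256 CPM in MCAO/R + WT and 2321 to 4259 in MCAO/R + Lrg1-/-, with oligodendrocyte markers at 133 and 201 against 602 to 1157 and a median mitochondrial share of 1.88% and 2.07% against 2.50% to 3.14%. After sham the neuroblast or neuron markers were 4649 to 5918 in WT and 2151 to 4065 in Lrg1-/-, and the mitochondrial share 1.99% to 2.25% and 2.42% to 4.41%. The median UMIs per cell were 12274 to 13691 in MCAO/R + WT and 3835 to 5369 in MCAO/R + Lrg1-/-. The part of these values in the calls was not tested.

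In oligodendrocyte-like cells 3 of 25 members were lower in Lrg1-/- after MCAO/R and 1 was higher, against 14.3% and 14.7% of all genes, and 3 were lower and 1 higher after sham, against 5.53% and 7.22%. After MCAO/R neither share of members was above that of all genes. Hist3h2ba was lower after both surgeries. It had 62.5 and 75.4 CPM in MCAO/R + WT and 22.4, 29.7 and 29.7 in MCAO/R + Lrg1-/- (-1.22 ± 0.15, edgeR adjusted p = 0.000107), and its change after sham was -1.06. Hist1h4i went the other way after MCAO/R, with 1.20 and 0.832 against 3.74, 3.26 and 2.95 (1.79 ± 0.34). The groups did not overlap in either gene. Hist1h1e (-0.83) and Hist3h2a (-0.47) were lower after MCAO/R, and Hist1h1c (-1.31) and Hist1h2be (-1.01) after sham, where Hist1h1d (1.85) was higher. The median mitochondrial share of these cells was 3.42% to 3.94% in WT libraries and 6.15% to 9.61% in Lrg1-/- libraries. The median UMIs per cell were 11856.5 to 16436 in sham + WT and 13662 to 16344 in MCAO/R + WT. In Lrg1-/- they were 6217 to 7516.5 after sham and 3499 to 6507 after MCAO/R. After MCAO/R the summed microglia markers were 150 to 205 CPM in WT and 441 to 745 in Lrg1-/-. The neuroblast or neuron markers were 443 to 543 and 300 to 360. These cells also lay in different clusters by genotype, since 1 cluster held 73.3% to 79.4% of them in sham + WT and 69.7% and 88.9% in MCAO/R + WT, and another 47.6% to 56.6% in sham + Lrg1-/- and 72.5% to 86.1% in MCAO/R + Lrg1-/-. The part of mitochondrial share, depth, markers and clusters in these results was not tested.

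Choroid plexus epithelial-like cells held 5 of the 12 pairs higher in Lrg1-/- after MCAO/R, among 22 members tested, against 11.9% of all genes. Hist1h2bc had 412 and 358 CPM in MCAO/R + WT and 757, 692 and 514 in MCAO/R + Lrg1-/- (0.95 ± 0.20, edgeR adjusted p = 0.00735). Hist1h4i (1.30), Hist2h3c2 (1.56), Hist1h4h (1.54) and Hist1h1c (0.84) were higher and 2 of the 22, Hist1h4d (-1.51) and Hist2h4 (-3.58), lower, against 11.1% of all genes. The median mitochondrial share of these cells was 8.33% and 7.37% in MCAO/R + WT and 3.92% to 4.94% in MCAO/R + Lrg1-/-, and its part was not tested. The WT groups had few of these cells, at 23 and 96 after MCAO/R, and the count of 5 was 3 without MCAO/R + WT replicate 1 and 1 without replicate 2. After sham surgery 2 members, Hist1h2br (-2.41) and Hist1h1d (-1.20), were lower here, against 4.57% of all genes. The remaining genotype calls after MCAO/R were Hist1h1c in astrocyte-like (1.05) and vascular smooth muscle-like cells (-0.50) and Hist1h2bc in pericyte-like cells (1.23).

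Whether the effect of MCAO/R differed between genotypes was tested by the interaction in the same fits. Over 196 pairs in 9 cell types, 2 were called higher and 5 lower, against 2.13% of all gene and type pairs in either direction. In endothelial-like cells, Hist1h4d had 8.63, 9.51 and 9.94 CPM in sham + WT and 9.67 and 10.6 in MCAO/R + WT, but fell from 31.3, 30.8 and 24.4 in sham + Lrg1-/- to 14.2, 11.1 and 19.5 in MCAO/R + Lrg1-/-. In microglia-like cells Hist1h1a had 1.08, 0.835 and 0.994 in sham + WT, 0.465 and 0.479 in MCAO/R + WT, 0.492, 0.441 and 0.420 in sham + Lrg1-/- and 1.94, 1.32 and 0.929 in MCAO/R + Lrg1-/-, opposite directions with no overlap within a genotype. The count of 7 was 2 or 3 without sham + WT replicate 1, 2 or 3, sham + Lrg1-/- replicate 1 or 2, or MCAO/R + WT replicate 2.

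Related genes were read from lists beside the members. The 11 histone genes listed as replication-independent lie outside the symbol rule, and H1f0 and H1fx among them are H1 genes. The leading genes of this list were much more abundant, with H3f3b at 2800 CPM, H3f3a at 941 and H2afz at 296 in non-dividing cells. In the comparison where 36 clustered pairs were lower, Lrg1-/- against WT after MCAO/R, 17 of their 113 pairs were higher and 5 lower, against 7.98% and 7.45% of all pairs. After sham 5 of 110 were higher and 10 lower, against 4.72% and 5.04%. In dividing neuroblast or neuron-like cells 7 of the 11 were higher, against 9.36% of all genes, among them H2afz (2.42) and H2afx (3.56). After MCAO/R against sham, 5 were higher and 7 lower of 112 in WT, against 5.89% and 5.44%, and 9 higher and 3 lower of 117 in Lrg1-/-, against 6.64% and 5.76%.

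Of 19 S-phase genes, such as the Mcm helicase genes, 19 were higher in dividing neuroblast or neuron-like cells, with a median of 2.14. With dividing cells left out, 38 of 136 S-phase pairs were higher in Lrg1-/- than in WT after MCAO/R and 1 lower, against 7.98% and 7.45% of all pairs. After MCAO/R against sham 32 of 137 were higher and 2 lower in Lrg1-/-, against 6.64% and 5.76%, and 12 of 135 were higher and 4 lower in WT, against 5.89% and 5.44%. Mcm5, which is not among the most abundant of these genes, was higher in microglia-like cells of MCAO/R + Lrg1-/-. Its change was 2.85 ± 0.31 against MCAO/R + WT and 3.21 ± 0.32 against sham + Lrg1-/-, where 14 clustered members each were lower. The median over all S-phase pairs and cell types was 0.42 and 0.46 in these comparisons, and the other S-phase genes of microglia-like cells are not shown. Genes of histone mRNA processing and decay (15 genes) gave 7 higher and 8 lower of 144 pairs and histone chaperones (12 genes) 9 higher and 7 lower of 108 in Lrg1-/- against WT after MCAO/R, shares near or below the 7.98% and 7.45% of all pairs. After MCAO/R against sham the chaperones gave 13 higher and 1 lower of 114 in Lrg1-/-, against 6.64% and 5.76% of all pairs, and 10 higher and 2 lower of 108 in WT, against 5.89% and 5.44%. The processing and decay genes gave 12 higher and 0 lower of 146 in Lrg1-/-, against 6.64% and 5.76% of all pairs. In WT they gave 5 higher and 1 lower of 142, against 5.89% and 5.44%, so neither share was above that of all pairs there. In dividing neuroblast or neuron-like cells 8 of 12 chaperones were higher, against 9.36% of all genes.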

How the data were processed

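Libraries were prepared by 10x Genomics 3′ single-cell RNA sequencing of right brain tissue, 1 per mouse. The deposited values are raw counts of UMIs per gene and barcode, which the authors made with Cell Ranger 7.0.1 according to the matrix headers (the study's methods name an earlier version, and the submitters' notes also STAR and mm10), with no normalization by the authors. The versions differ by default in whether intronic reads are counted, and the setting used is not given in the sources used here. Coordinates are GRCm38.

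Cells with over 500 genes, over 1000 UMIs and under 25% mitochondrial UMIs were kept, and the top 6% of barcodes by doublet score were removed. Cells were clustered (2000 variable genes, 15 components, Leiden resolution 0.3, leidenalg 0.10.2) without the histone or cycle genes, and clusters were named from marker lists. Counts were summed per library, cell type and class (dividing or other), with at least 20 cells each, and tested in R 4.3.3 with edgeR 4.0.16 (glmQLFit, glmQLFTest), all 4 groups in 1 fit per type, or dividing against other cells with the library as a block in at least 3 libraries. Calls needed a Benjamini-Hochberg adjusted p under 0.05 and an absolute natural-log fold above 0.25. Each SE, also in the figures, is the absolute log2 change divided by the square root of the test's F statistic. It was thus derived from the test and is no separate measure of the spread over mice. Scripts were tested on simulated data. DESeq2 1.42.0, other filters, scaling, type definitions, a replicate block, thinning to 1000 UMIs per cell and leaving out each library were the alternatives. A split of dividing cells by S-phase genes was not run, because only 2 libraries held 20 dividing cells without them. Same-numbered replicates did not deviate together (correlations of at most 0.0779 over 3 cell types), so the numbers were not taken as pairs.

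The members and lists were chosen with earlier results of these data known. The named genes were the 12 members with the most UMIs, up to 10 called members per comparison and cell type by adjusted p, those called in the most types, and up to 4 genes per other list. Of the last, H2afx and Mcm5 were not among the 4 with the highest mean level in their lists. Levels are CPM, UMIs scaled to a total of 1000000. Members at a few CPM rest on few UMIs in small types and are measured less precisely there.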

Additional observations from a re-analysis of the deposited data

Results flagged for a closer look

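For 7 member and cell type pairs the effect of MCAO/R differed between the genotypes by the interaction term of edgeR's fit. Each value below is the log2 change after MCAO/R in Lrg1-/- minus that in WT, with its SE.

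In endothelial-like cells the difference was -2.02 ± 0.40 for Hist1h1e (adjusted p = 0.0293) and -1.18 ± 0.24 for Hist1h4d (adjusted p = 0.0324). Hist1h1e had 9.22, 9.33 and 11.6 CPM in sham + WT, 14.3 and 9.38 in MCAO/R + WT, 19.3, 21.5 and 14.3 in sham + Lrg1-/- and 6.44, 3.48 and 8.69 in MCAO/R + Lrg1-/-, so that the 2 Lrg1-/- groups did not overlap, whereas the WT groups did.

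In microglia-like cells it was -2.71 ± 0.51 for Hist1h2ad (adjusted p = 0.0102), -1.04 ± 0.22 for Hist1h4d (adjusted p = 0.0157), -1.29 ± 0.35 for Hist1h3d (adjusted p = 0.0412) and 2.56 ± 0.58 for Hist1h1a (adjusted p = 0.0201). Hist1h2ad had 2.36, 3.56 and 4.0 CPM in sham + WT, 3.15 and 2.68 in MCAO/R + WT, 4.10, 2.43 and 2.10 in sham + Lrg1-/- and 0.485, 0.449 and 0.282 in MCAO/R + Lrg1-/-. The last group was below the other 3, which overlapped.

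In oligodendrocyte-like cells it was 1.32 ± 0.32 for Hist1h1c (adjusted p = 0.0437), whose level fell after MCAO/R in WT and was 49.0, 38.1 and 36.1 CPM in sham + Lrg1-/-. Each of these 7 calls was lost under at least 1 of the alternatives run.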

How the results depend on the processing

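Thinning cells to 1000 UMIs left 2 higher and 17 lower pairs in Lrg1-/- against WT after MCAO/R, 0 higher and 11 lower after MCAO/R against sham in WT, 0 and 10 in Lrg1-/-, 2 and 8 in Lrg1-/- against WT after sham, 2 for the interaction, and 3 higher and 0 lower in dividing cells. Over the alternatives, 13 of 48, 7 of 35, 13 of 55, 8 of 35 and 0 of 7 called pairs of these first 5 comparisons held in each one.

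In Lrg1-/- against WT after MCAO/R the higher count of 12 was 6 with a 10% mitochondrial limit and 3 with these groups fitted alone (4 to 11 without 1 library), and the lower count of 36 was 22 with the replicate block and 19 with the groups alone (20 to 38). In WT after MCAO/R the 1 higher call was lost, leaving 0, with DESeq2, no filter on low counts, the replicate block, doublets kept, marker types per cell, dividing cells included or groups alone (0 to 1), and the lower count was 18 to 39 without 1 library. In Lrg1-/- after MCAO/R the 1 higher call became 0 with DESeq2, marker types, dividing cells included or groups alone and 2 with no filter (0 to 1), and the lower count was 27 to 56. In Lrg1-/- against WT after sham the higher count of 16 was 6 with the replicate block (6 to 19), and the lower count of 19 was 32 with no filter and 29 with marker types (13 to 21). The interaction count of 7 was 14 with DESeq2, 18 with no filter, 1 with the replicate block and 2 with marker types (2 to 10). In dividing cells the higher count of 20 was 49 with marker types and 31 with 10 cells a class, the last chosen after seeing the data (13 to 23), and the lower count of 4 was 0 without the library block (1 to 4). More types or genes could be tested with marker types, no filter and 10 cells. The cause of the other moves was not tested.

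In microglia-like cells 3 changes turned sign: Hist1h1e in Lrg1-/- against WT after MCAO/R was -0.10 and Hist1h2bc after sham was 0.017 with marker types, and Hist2h4 in Lrg1-/- after MCAO/R was 3.24 after thinning. The test of S-phase genes within dividing cells and its alternatives were not run.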
